A study of Mus musculus with 2 samples.

Results

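The classical cadherins and the non-clustered protocadherins were profiled by nucleus class in 2 mouse brain libraries. The set was defined by symbol alone, as every gene named Cdh or Pcdh followed by a number (with Pcdh11x included), which gave 35 genes of the 32285 in the feature tables. The clustered Pcdha, Pcdhb and Pcdhg genes were left out. By subfamily the set held 5 type I classical cadherins, 13 type II cadherins, 5 other cadherins, 4 delta1 protocadherins, 5 delta2 protocadherins and 3 other protocadherins. One library came from the hippocampal region of an adult male C57BL/6J mouse aged 56 days, and the other from a sagittal section through the brain of a C57BL/6J embryo at embryonic day 14 (E14). Both were wild-type, untreated, fresh frozen sections, and nuclei were tagged on a bead array (Slide-tags) before droplet-based single-nucleus RNA sequencing. Each tissue was represented by 1 library from 1 animal, so no test between animals was possible and no p-value is given. Intervals beside values are exact 95% Poisson or binomial intervals and cover counting error only.

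Cadherins are single-pass membrane proteins whose extracellular repeats bind cadherins on neighbouring cells in the presence of calcium. Classical cadherins are tied to the actin cytoskeleton by catenins, with type I members such as N-cadherin (Cdh2) acting in general adhesion and type II members marking subsets of neurons and vessels. The delta protocadherins have a different cytoplasmic tail, and several bind the WAVE complex, which controls actin branching. Because neurons that share a cadherin tend to adhere, the combination of members in a cell is often described as an adhesion code for sorting, layering and synaptic matching.

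Nuclei were placed in classes, written here as X-like, from the UMIs (unique molecular identifiers, counted transcripts) of fixed marker lists that held none of the 35 genes. Of 1661 adult barcodes 1609 passed filters, with a median of 6607 UMIs, and 1171 were assigned to a class. Of 9037 E14 barcodes 9036 passed, with a median of 4204 UMIs, and 2668 were assigned, which left 70.5% of E14 nuclei unassigned. The number of classes described was 11 in the adult library and 18 in the E14 library. Levels below are UMIs per 1000000 UMIs (CPM), with UMIs summed over the nuclei of a class. Each described adult class held more of its own marker list than any other class did. The same held at E14, with progenitors as 1 class, although the striatal list (2559 CPM in striatal-like nuclei) was also at 2175 CPM in mural-like nuclei. Because the same lists placed the nuclei, this order follows largely from the rule and is not an independent check of class identity. A class is a range of marker scores and not a discrete type, and the nuclei near the classification limit numbered 48 of 312 for dentate granule-like, 11 of 24 for CA3-like, 9 of 22 for Gata GABAergic-like and 10 of 18 for E14 mural-like nuclei. The libraries shared 1 barcode. "The rest" is every other nucleus of the same library, unassigned nuclei included.

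RNA outside nuclei, or nuclei captured together, can place UMIs in classes that do not express a gene. In adult microglia or macrophage-like nuclei the inhibitory marker list stood at 968 CPM against 17181 in inhibitory-like nuclei, and in E14 microglia or macrophage-like nuclei the Lhx6 interneuron list stood at 1795 against 11383 in its own class. Among cadherin genes at 10 or more CPM in the whole library, 22 of 23 were below the library level in adult microglia or macrophage-like nuclei, with a median of 30.5% of that level. At E14 the same class was below for 21 of 25, with a median of 65.5%. The median E14 endothelial-like nucleus held 14 UMIs of the thalamic list beside 45 of its own. A level at or under the library level in a non-neural class is therefore given as a value only.

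The members took between 0.196% (endothelial-like) and 1.54% (oligodendrocyte-like) of all UMIs in the described adult classes, and between 0.444% (microglia or macrophage-like) and 1.10% (Gata GABAergic-like) at E14. Pcdh9, a delta1 protocadherin, carried much of this. Without Pcdh9 the adult oligodendrocyte-like share was 0.39%.

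Promoter sequences were available for 22 of the 35 members from RefSeq (GRCm38.p6), each covering 250 bases before and 50 after the annotated start. Those of Cdh9 and Cdh18, type II cadherins of 1 cluster on chromosome 15, are shown for their different leading classes among adult excitatory nuclei. The promoter of Cdh20 is shown for its glial pattern, and that of Pcdh18 for its E14 calls in endothelial-like and fibroblast-like nuclei. Capitals mark the letters CCAAT, or ATTGG on the other strand, extended where present to AGCCAATCAG or its reverse complement CTGATTGGCT. The Cdh9 window is chr15:16728665-16728964 on the plus strand, the Cdh18 window chr15:23036213-23036512 on the plus strand, the Cdh20 window chr1:104768270-104768569 on the plus strand and the Pcdh18 window chr3:49757267-49757566 on the minus strand. In GENCODE vM21 the Cdh18 gene begins at 22549022, so its RefSeq window lies well inside that gene. Which start was used in these nuclei was not tested.
Cdh9: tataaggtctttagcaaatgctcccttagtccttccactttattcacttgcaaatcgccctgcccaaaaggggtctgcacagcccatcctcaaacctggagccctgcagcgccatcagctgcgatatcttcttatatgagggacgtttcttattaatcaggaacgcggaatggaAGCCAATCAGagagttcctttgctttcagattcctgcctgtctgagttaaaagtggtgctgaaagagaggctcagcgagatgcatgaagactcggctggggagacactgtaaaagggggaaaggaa
Cdh18: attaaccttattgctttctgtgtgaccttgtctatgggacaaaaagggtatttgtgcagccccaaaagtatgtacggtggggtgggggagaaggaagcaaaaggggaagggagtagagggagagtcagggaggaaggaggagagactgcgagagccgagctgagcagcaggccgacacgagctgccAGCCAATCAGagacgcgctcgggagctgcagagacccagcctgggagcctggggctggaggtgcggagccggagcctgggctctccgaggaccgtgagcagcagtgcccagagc
Cdh20: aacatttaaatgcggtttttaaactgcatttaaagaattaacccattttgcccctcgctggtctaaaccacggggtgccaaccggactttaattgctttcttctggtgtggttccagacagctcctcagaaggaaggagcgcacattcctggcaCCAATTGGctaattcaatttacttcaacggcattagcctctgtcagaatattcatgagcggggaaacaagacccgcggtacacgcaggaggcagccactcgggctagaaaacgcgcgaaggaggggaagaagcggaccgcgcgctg
Pcdh18: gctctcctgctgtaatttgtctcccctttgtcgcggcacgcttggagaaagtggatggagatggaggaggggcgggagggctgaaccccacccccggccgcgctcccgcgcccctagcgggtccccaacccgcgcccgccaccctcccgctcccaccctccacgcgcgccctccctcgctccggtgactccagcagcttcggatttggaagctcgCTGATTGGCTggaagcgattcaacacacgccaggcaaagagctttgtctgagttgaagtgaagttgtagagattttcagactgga
The run of 10 letters began 76 bases before the start in Cdh9, 64 bases before it in Cdh18, and 35 bases before it on the other strand in Pcdh18. CCAAT or its complement was found in 17 of the 25 member promoters and in 37.4% of all 32851 promoters. The run of 10 letters, which contains CCAAT and is the longest shared by the Cdh9, Cdh18 and Pcdh18 windows, was chosen after the sequences were seen. It was found in 4 of the 25 (Cdh9, Cdh18, Pcdh18 and Pcdh19) and in 1.45% of all promoters. The hits in Cdh9, Cdh18 and Pcdh18 were fixed by that choice, and Pcdh19 was the only other member with the run. The count of 4 therefore cannot be compared with the share over all promoters. A match is a description of the letters and not evidence of a bound factor.

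In the adult library 27 of the 35 genes reached at least 10 CPM and 20 UMIs in some class. A gene was called in a class when it passed those minimums and was at least 4-fold above the rest. The members gave 18 calls among 167 gene-class pairs that passed the minimums (10.8%), against 5.67% of pairs over all genes outside the marker lists. Counted by gene, 14 of the 27 were called in at least 1 class (51.9%), against 25.1% of all genes. Type II cadherins gave 11 of the 18 calls, from 8 of 13 genes. None of the 4 delta2 protocadherins that passed was called. The index tau, which is 0 for an even gene and 1 for a gene found in 1 class, had a median of 0.731 over the 27 members and 0.588 over all genes. The 8 genes below the minimums were Cdh1, Cdh3, Cdh15, Cdh16, Cdh17, Cdh26, Pcdh12 and Pcdh18. Cdh17, a cadherin of liver and intestine, had 0 UMIs in this library, where 3 UMIs would be 0.195 CPM.

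**Figure D1:**
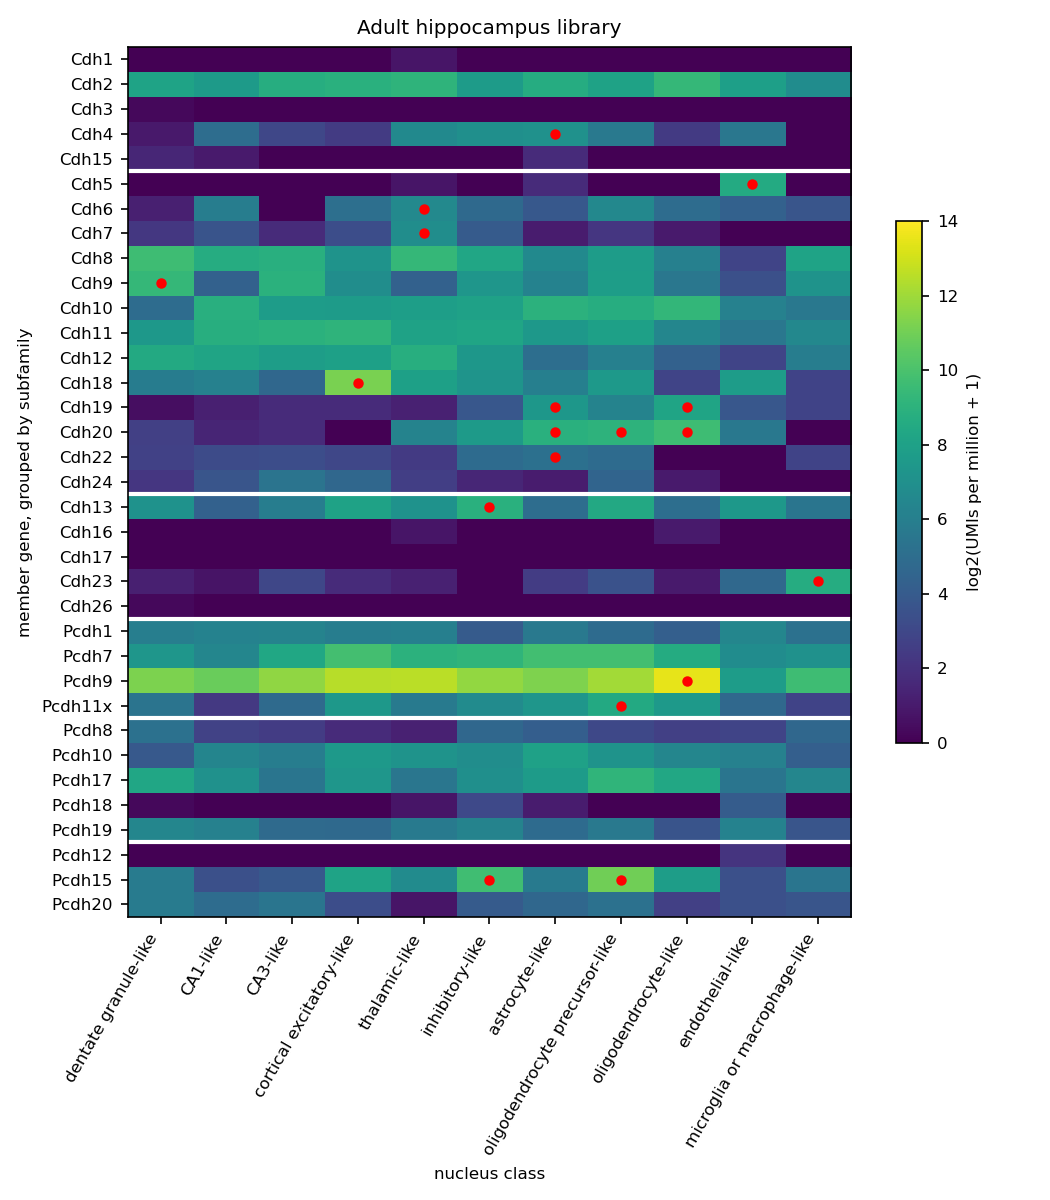
Levels of the 35 members (rows, grouped by subfamily) in 11 adult nucleus classes (columns), as log2(CPM + 1), with red dots on the 18 calls. Cdh5, Cdh23 and Cdh18 each stand out in a single column, while Cdh2 and Pcdh9 are present in every column.

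The hippocampal fields carried different type II cadherins. Cdh9, known for its role at mossy fibre synapses between dentate granule and CA3 neurons, was at 638 CPM (615 to 662) in dentate granule-like nuclei and 490 (427 to 560) in CA3-like nuclei, but at 19.5 (14.8 to 25.2) in CA1-like nuclei. The dentate level was 32.8-fold (25.3 to 43.3) and the CA3 level 25.2-fold (18.8 to 34.3) that of CA1. Dentate and CA3 differed by only 1.3-fold (1.13 to 1.5). Cdh9 was called in dentate granule-like nuclei, 4.26-fold above the rest, beside 0.857% of genes called in that class. With the required lead over the second class doubled, the fold was 3.63. Cdh9 UMIs were seen in 92.0% of dentate granule-like, 75.0% of CA3-like and 8.12% of CA1-like nuclei, and in 9.30% of microglia or macrophage-like nuclei. An antisense transcript overlapping it, Gm49127, stood at 114 CPM in dentate granule-like nuclei.

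Cdh10, a type II neighbour of Cdh9 on chromosome 15, had the reverse order between dentate gyrus and CA1. It was at 457 CPM in CA1-like, 216 in CA3-like and 30.2 in dentate granule-like nuclei, and CA1 was 15.1-fold (12.7 to 18.2) above the dentate. Its highest adult levels were nevertheless glial, at 614 in oligodendrocyte-like and 508 in astrocyte-like nuclei. Cdh8, another neuronal type II cadherin, was at 791 in dentate granule-like, 652 in thalamic-like, 447 in CA3-like and 402 in CA1-like nuclei. Cdh11, first described in bone and also present in neurons, was at 177 in dentate granule-like nuclei, and its levels in CA1-like (433) and CA3-like (488) nuclei were above that. CA1 over dentate was 2.45-fold (2.24 to 2.68) for Cdh11. Cdh6 was at 60.1 in CA1-like nuclei and had 0 UMIs in CA3-like nuclei. With CA3 set to 3 counts, CA1 was 8.82-fold higher, and the lower interval limit was 7.10. Cdh24 had 18 UMIs in CA3-like nuclei (40.9 CPM) and 16 in dentate granule-like nuclei (3.63 CPM), a ratio of 11.3 (5.42 to 23.6).

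Other members also separated the fields. Cdh13 (T-cadherin), which is anchored to the membrane by a lipid and has no cytoplasmic tail, was at 138 CPM in dentate granule-like and 19.1 in CA1-like nuclei, a ratio of 7.19 (5.47 to 9.60). Pcdh17, a delta2 protocadherin, was 7.32-fold (4.67 to 12.2) higher in dentate granule-like than in CA3-like nuclei, though its highest level was 565, in oligodendrocyte precursor-like nuclei. Pcdh8, an activity-regulated delta2 protocadherin also called arcadlin, was 6.4-fold (3.88 to 11.3) higher in dentate granule-like than in CA1-like nuclei. Pcdh20 was at 54.7 in dentate granule-like nuclei and rested on 1 UMI in thalamic-like nuclei. These pairs of classes were picked after the levels had been seen, and the intervals are given for size only. Neither CA1-like nor CA3-like nuclei had a called member (0 of 19 and 0 of 11 tested), beside 1.30% and 1.32% of genes.

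**Figure D2:**
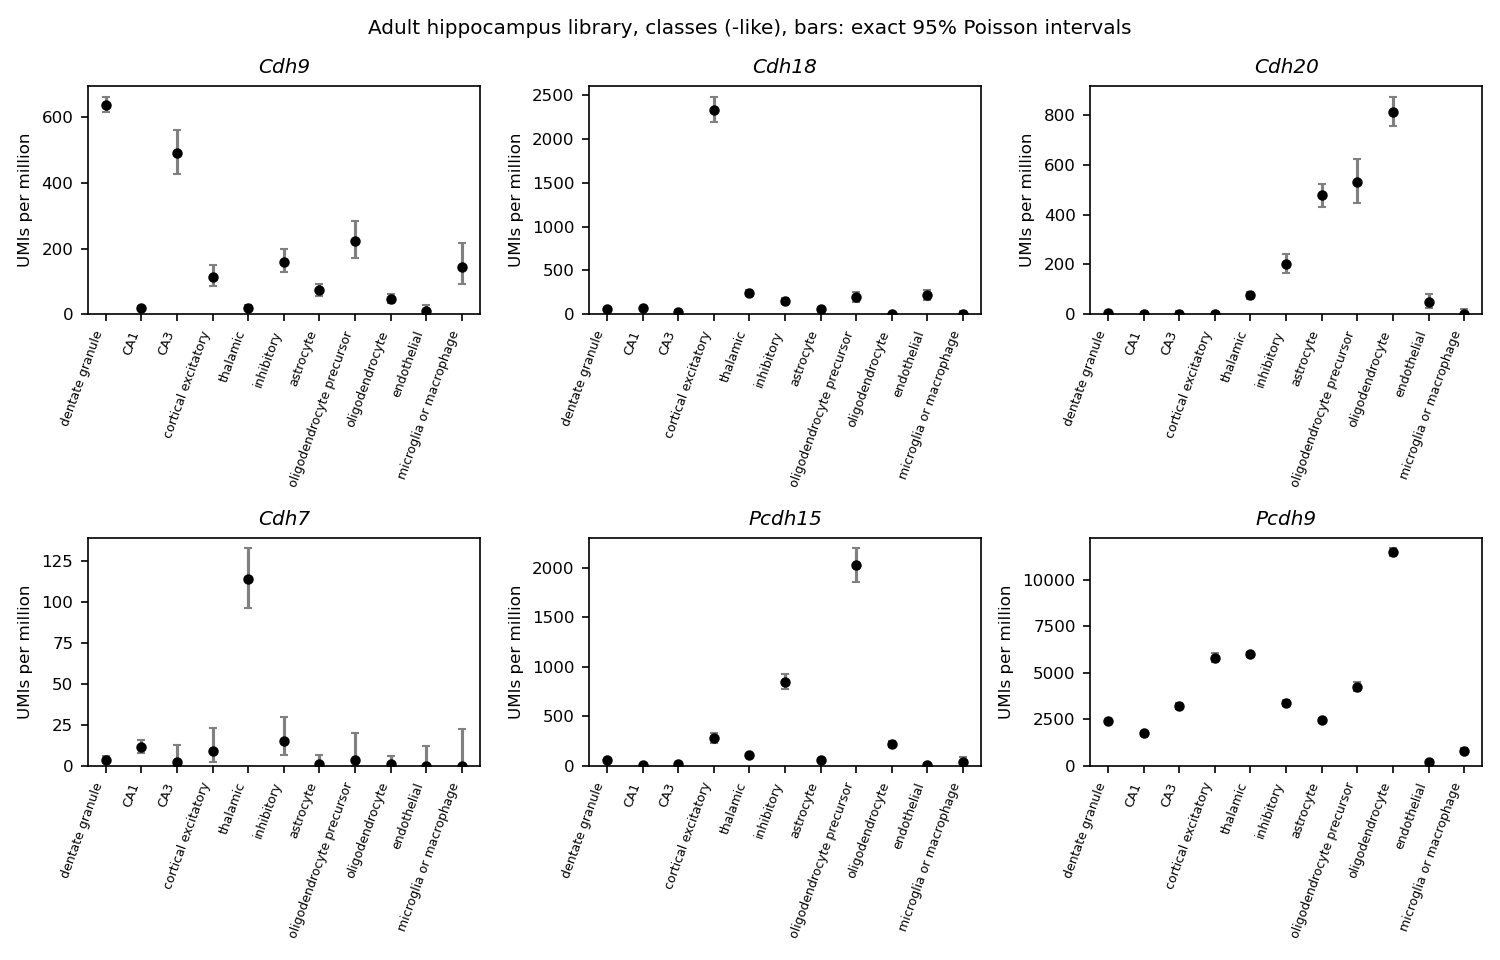
Levels of 6 members in each adult class in CPM (y axis, linear from 0), with exact 95% Poisson intervals as bars. Cdh9 is high in dentate granule-like and CA3-like nuclei, Cdh18 in cortical excitatory-like nuclei, Cdh7 in thalamic-like nuclei, Cdh20 and Pcdh9 in oligodendrocyte-like nuclei, and Pcdh15 in oligodendrocyte precursor-like nuclei.

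Cortical excitatory-like nuclei (26 nuclei, led by Dpp10, Cdh18, Ccn2 and Nxph3) were set apart by Cdh18, a type II cadherin of the chromosome 15 cluster. Cdh18 was at 2334 CPM (2194 to 2481) there, 24.6-fold (22.7 to 26.6) above the rest, and was the only member called in the class, beside 2.51% of genes. The next class, thalamic-like, was at 247, and the cortical level was 9.45-fold (8.36 to 10.7) higher. The lowest was 6.05 in microglia or macrophage-like nuclei. Cdh18 was found in 96.2% of cortical excitatory-like nuclei, and in 84.6% (65.1 to 95.6) after thinning each nucleus to 1000 UMIs. In adult endothelial-like nuclei Cdh18 was at 216, but these UMIs came from 4.08% of the nuclei. None of the class's own markers was among its 10 leading genes. The values therefore describe these 26 nuclei and not cortical excitatory neurons as a whole.

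The calls in thalamic-like nuclei were Cdh7, known from the neural crest, and Cdh6, known from compartment boundaries of the developing brain, both type II cadherins. Cdh7 was at 114 CPM (96.8 to 133), 18.2-fold (13.9 to 23.9) above the rest, and the next class, inhibitory-like, was at 15.1. Cdh6 was at 96.0, 4.08-fold (3.31 to 4.99) above the rest. Its next class was oligodendrocyte precursor-like at 93.0, so Cdh6 did not set thalamic-like nuclei apart from that class. The fold of Cdh6 fell under 4 when nuclei were weighted equally (3.50). Its call was also lost with the doubled lead and with the rest limited to assigned nuclei. In all, 2 of 20 members tested were called in the class, beside 4.75% of genes. Cdh12, also of the chromosome 15 cluster, was at 433 in thalamic-like nuclei, at 367 in dentate granule-like nuclei and at 19.7 in oligodendrocyte-like nuclei.

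Inhibitory-like nuclei had 2 calls among 17 members tested, beside 4.21% of genes. Cdh13 was at 474 CPM (417 to 536), 4.44-fold above the rest and 3.76-fold when nuclei were weighted equally, with UMIs in 42.1% of the 38 nuclei. Pcdh15, a protocadherin best known from the tip links of hair cells, was at 849 (772 to 931), 7.50-fold above the rest. It was found in 60.5% of these nuclei, so neither gene covered the class. The opposite-strand RNA Gm15398, annotated in the Pcdh15 locus, was at 432.

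Oligodendrocyte lineage nuclei carried a different set. Pcdh15 was highest in oligodendrocyte precursor-like nuclei, at 2024 CPM (1860 to 2197), 19.5-fold (17.7 to 21.5) above the rest, with UMIs in 90.6% of 32 nuclei. In oligodendrocyte-like nuclei Pcdh15 was at 222, so the precursor level was 9.12-fold (7.78 to 10.7) higher. Gm15398 stood at 461 in the precursor-like class. Pcdh11x, an X-linked delta1 protocadherin, was at 361 in precursor-like nuclei, 6.69-fold above the rest, and at 187 in oligodendrocyte-like nuclei. Precursor-like nuclei had 3 calls among 16 members, beside 6.14% of genes.

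The third call in precursor-like nuclei was Cdh20, a type II cadherin that adjoins Cdh7 and Cdh19 on chromosome 1. Cdh20 was at 813 CPM (757 to 872) in oligodendrocyte-like, 529 (447 to 622) in precursor-like and 477 (432 to 524) in astrocyte-like nuclei, against 5.22 in dentate granule-like nuclei, 1.68 in CA1-like nuclei and 0 in cortical excitatory-like nuclei. It was called in all 3 glial classes, 12.6-fold, 5.11-fold and 5.35-fold above the rest. With nuclei weighted equally the precursor and astrocyte folds were 3.01 and 2.56. Inhibitory-like nuclei held 200 CPM.

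Cdh19, known from Schwann cell precursors and glia, was at 285 CPM (252 to 321) in oligodendrocyte-like and 168 (142 to 197) in astrocyte-like nuclei. These levels were 19.7-fold (16.4 to 23.7) and 7.23-fold above the rest, the latter 3.00-fold with nuclei weighted equally. In precursor-like nuclei Cdh19 was at 75.1, so oligodendrocyte-like nuclei were 3.80-fold (2.43 to 6.23) higher. The 3 chromosome 1 neighbours therefore had different leading classes, with thalamic-like nuclei leading for Cdh7 and oligodendrocyte-like nuclei for Cdh19 and Cdh20. Pcdh9 was at 11482 (11270 to 11698) in oligodendrocyte-like nuclei, 4.14-fold above the rest, and at 5985 and 5819 in thalamic-like and cortical excitatory-like nuclei. Its lowest level was 213, in endothelial-like nuclei. Oligodendrocyte-like nuclei had 3 calls among 15 members, beside 9.52% of genes.

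Astrocyte-like nuclei had 4 calls among 21 members (Cdh20, Cdh19, Cdh4 and Cdh22), beside 9.32% of genes. Cdh4 (R-cadherin), a type I cadherin, was at 134 CPM (111 to 160), 4.44-fold above the rest and 3.73-fold with nuclei weighted equally. The inhibitory-like level of 126 did not differ beyond counting error, with a ratio of 1.06 (0.777 to 1.45). Cdh22 was at 35.1 from 31 UMIs in 10.1% of nuclei, and its fold of 4.45 was 2.77 when only nuclei lying in clusters of their own class were used.

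Vascular and myeloid classes each had 1 called member. Cdh5 (VE-cadherin), the adhesion molecule of endothelial junctions, was at 377 CPM (312 to 452) in endothelial-like nuclei, 183-fold (122 to 282) above the rest, and 1 of 10 members was called beside 19.6% of genes. It was at 0 in 8 of the other classes and at 2.26 or below in the remaining 2. The mural marker list stood at 2545 in these nuclei. Cdh23, a partner of Pcdh15 in hair cell tip links, was at 405 (314 to 515) in microglia or macrophage-like nuclei, 131-fold (88.9 to 194) above the rest, where 1 of 5 members was called beside 17.3% of genes.

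Cdh23 shares its locus with Vsir, which encodes an immune checkpoint receptor of myeloid cells and lies on the opposite strand. Vsir had 57 UMIs in adult microglia or macrophage-like nuclei (345 CPM) beside 67 for Cdh23. Both genes had their next highest adult level in endothelial-like nuclei, with 51.6 for Vsir and 25.8 for Cdh23. In E14 microglia or macrophage-like nuclei Vsir was at 43.4 and Cdh23 at 57.2. Whether reads of the Vsir region entered the Cdh23 count was not tested.

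Several adult values outside the calls came from a few nuclei. Cdh9 at 222 CPM in precursor-like nuclei rested on 12.5% of them, and Cdh8 at 278 in microglia or macrophage-like nuclei on 11.6%. N-cadherin, Cdh2, was widespread. It ranged from 109 in microglia or macrophage-like nuclei to 633 in oligodendrocyte-like nuclei, with thalamic-like at 554 and CA1-like at 194, and was called in no class. Of the delta protocadherins without a call, Pcdh7 was highest in cortical excitatory-like (891), oligodendrocyte precursor-like (876) and astrocyte-like (874) nuclei and lowest in CA1-like nuclei (83.6). Pcdh10 was highest in astrocyte-like nuclei (258) and lowest in dentate granule-like nuclei (13.8). Pcdh1 and Pcdh19 were more even, between 15.1 and 83.9 for Pcdh1 and between 11.4 and 85.1 for Pcdh19.

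At E14, 29 of the 35 genes passed the minimums in some class. The members gave 10 calls among 361 pairs (2.77%), against 2.25% over all genes, and 8 of the 29 were called in any class (27.6%), against 17.9%. The pair count was thus near the background. The median tau was 0.554 for the members and 0.513 for all genes. Of the 10 calls, 8 were in endothelial-like, fibroblast-like or choroid plexus-like nuclei, and 2 were in neuronal classes. Cdh15, Cdh16, Cdh17, Cdh19, Cdh26 and Pcdh20 stayed below the minimums. Cdh19 had 19 UMIs in the whole E14 library, beside 275 in adult oligodendrocyte-like nuclei alone.

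**Figure D3:**
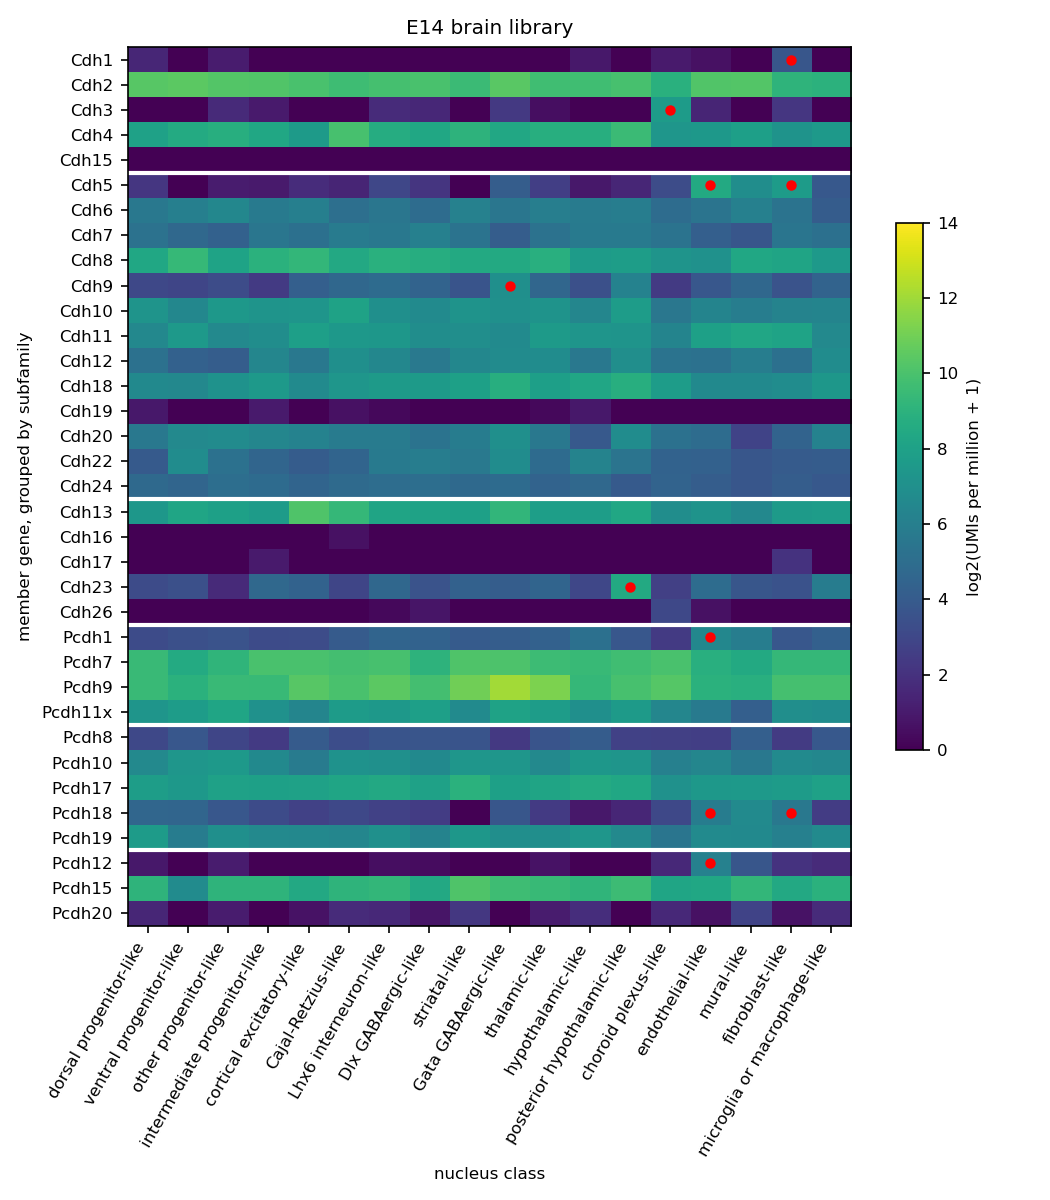
Levels of the 35 members (rows, grouped by subfamily) in 18 E14 nucleus classes (columns), as log2(CPM + 1), with red dots on the 10 calls. Most dots lie in the endothelial-like and fibroblast-like columns, and among neuronal and progenitor columns only posterior hypothalamic-like (Cdh23) and Gata GABAergic-like (Cdh9) have one.

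The endothelial-like class at E14 had 4 calls among 26 members, beside 6.97% of genes. Cdh5 was at 367 CPM (340 to 397), 27.7-fold (24.9 to 30.8) above the rest. Pcdh12, also called VE-cadherin-2 and found in endothelium and trophoblast, was at 69.4 (57.7 to 82.7), 76.2-fold (54.7 to 107) above the rest. Pcdh1, a delta1 protocadherin, was at 86.7, 4.56-fold above the rest, and 3.93-fold with TMM scaling. Pcdh18, a delta2 protocadherin, was at 58.2 (47.5 to 70.5), 6.97-fold above the rest. Pcdh18 was at 103 (60.2 to 165) from 17 UMIs in mural-like nuclei, whose ratio to endothelial-like nuclei of 1.78 (0.996 to 2.98) included 1.

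Cdh5 was also called in E14 fibroblast-like nuclei, at 206 CPM (184 to 229), 10.9-fold (9.61 to 12.3) above the rest. This was 56.1% of the endothelial-like level. The 8 endothelial markers in the same nuclei stood at 2.20% (Adgrl4) to 7.20% (Eng) of their endothelial-like levels, and Pcdh12 at 4.47%. In the 133 fibroblast-like nuclei without any UMI of those markers, Cdh5 was at 193 (161 to 229), from 132 UMIs among 684434. These nuclei were chosen for having none of the marker UMIs, which shallow nuclei meet more easily, and the part of endothelial RNA in the fibroblast-like Cdh5 level was not tested. The class was led by Ptgds, H19, Col1a1 and Col3a1. An antisense transcript overlapping Cdh5, Gm29682, was at 14.9 in these nuclei and 16.8 in endothelial-like nuclei. Mural-like nuclei held Cdh5 at 115 from 19 UMIs, with an endothelial list of 705 CPM.

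The other fibroblast-like calls were Pcdh18 at 48.4 CPM (38.3 to 60.4), 5.51-fold above the rest, and Cdh1 (E-cadherin), the type I cadherin of epithelia. Cdh1 was at 12.4 from 20 UMIs in 5.56% of nuclei, 26.3-fold (14 to 48.7) above the rest, which was exactly the minimum of 20 UMIs. The call was lost under 5 alternatives that removed nuclei, although the fold stayed between 19.5 and 24.3. In all, 3 of 24 members were called in fibroblast-like nuclei, beside 5.23% of genes.

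Choroid plexus-like nuclei were marked by Cdh3 (P-cadherin), a type I cadherin of epithelia. Cdh3 was at 208 CPM (180 to 239), 165-fold (126 to 219) above the rest, from 198 of the 271 Cdh3 UMIs in the library. The next class was Gata GABAergic-like at 4.06, which rested on 1 UMI. It was the only call among 20 members in the class, beside 8.32% of genes. Cdh2 had its lowest E14 level there, at 474 (432 to 520).

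**Figure D4:**
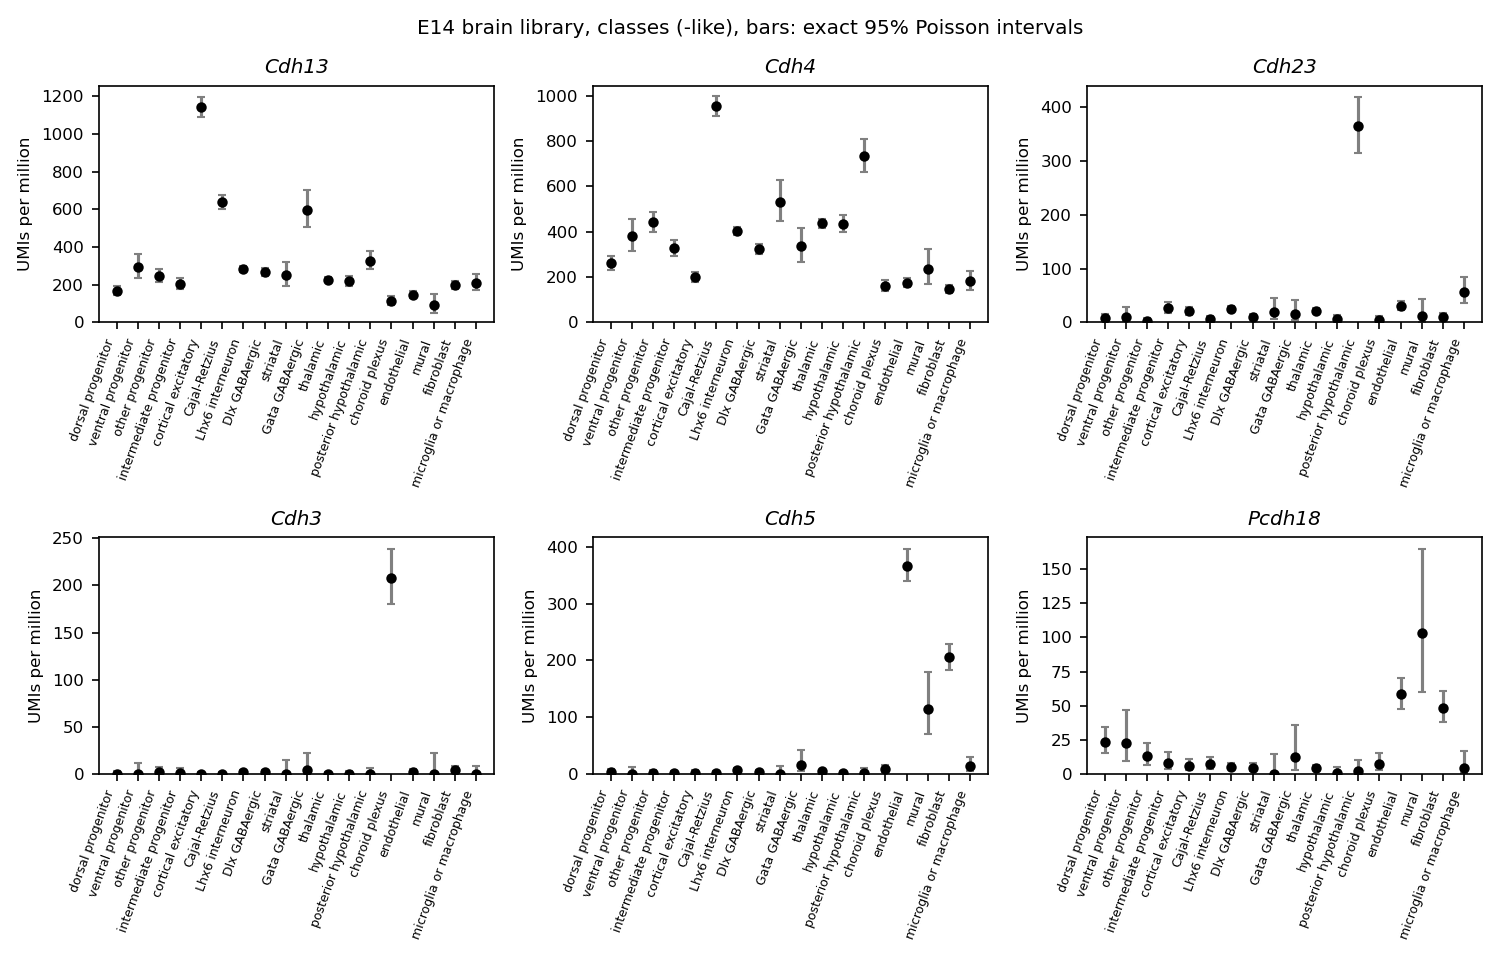
Levels of 6 members in each E14 class in CPM (y axis, linear from 0), with exact 95% Poisson intervals as bars. Cdh3 and Cdh23 each stand out in 1 class, Cdh5 and Pcdh18 in endothelial-like, mural-like and fibroblast-like nuclei, and Cdh13 and Cdh4 are graded across neuronal classes.

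Among E14 neurons, posterior hypothalamic-like nuclei (47 nuclei, with Lmx1b, Ebf2 and Lmx1a among their leading genes) had Cdh23 at 365 CPM (316 to 419), 13.0-fold (11.2 to 15.1) above the rest, with UMIs in 76.6% of nuclei. Microglia or macrophage-like nuclei, the next class, were at 57.2, and the ratio was 6.39 (4.20 to 10.1). Vsir, on the opposite strand, also had its highest E14 level in this class, at 69.4 from 38 UMIs against 200 for Cdh23, and the opposite-strand gene Gm17455 was at 29.2 from 16 UMIs. The part of these genes in the Cdh23 count was not tested. This was 1 call among 21 members, beside 0.383% of genes. Gata GABAergic-like nuclei (22 nuclei) had Cdh9 at 126 (85.4 to 178), 5.03-fold above the rest from 31 UMIs, but 3.30-fold when 2 markers sufficed for a class and 3.89-fold among nuclei with at least 2000 UMIs. With 4 markers, the doubled lead or clustered nuclei alone, the class fell under 15 nuclei and gave no value. Posterior hypothalamic-like nuclei followed at 73.0. This was 1 of 18 members, beside 0.296% of genes. Pcdh9 had its highest E14 level in Gata GABAergic-like nuclei, at 4339, against 2389 in thalamic-like nuclei, a ratio of 1.82 (1.70 to 1.93).

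No member was called in the remaining 13 E14 classes. The share of all genes called was also small in most of these, at 0.247% in thalamic-like, 0.0402% in Lhx6 interneuron-like, 0.118% in Dlx GABAergic-like, 0.537% in Cajal-Retzius-like, 0.526% in cortical excitatory-like, 0.29% in hypothalamic-like and 0.0349% in striatal-like nuclei. Among progenitors it was 1.63% in the other, 0.476% in the intermediate, 1.07% in the dorsal and 2.57% in the ventral class. It was 7.22% in microglia or macrophage-like and 4.68% in mural-like nuclei, where 17 and 8 members were tested. Without a minimum level, Cdh5, Pcdh12, Pcdh18 and Pcdh20 were called in mural-like nuclei. The absence of these calls therefore reflects the minimums and not folds under 4. Cdh16 in Cajal-Retzius-like and Cdh17 in intermediate progenitor-like nuclei were also called in that setting.

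Other neuronal differences were graded and did not reach 4-fold. Cdh13 was highest in cortical excitatory-like nuclei, at 1144 CPM (1093 to 1198), 3.54-fold above the rest. The fold passed 4 when the rest was limited to assigned nuclei, with nuclei weighted equally, with the larger lead and with clustered nuclei alone. Cajal-Retzius-like nuclei followed at 639 and Gata GABAergic-like nuclei at 596. Intermediate progenitor-like nuclei were at 205, so the cortical level was 5.57-fold (4.81 to 6.48) that of the progenitors.

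Cdh4 had another order. It was at 954 CPM in Cajal-Retzius-like nuclei, 734 in posterior hypothalamic-like nuclei and 199 in cortical excitatory-like nuclei, and the first was 4.80-fold (4.26 to 5.42) the last. Cdh8 was at 657 in ventral progenitor-like and 610 in cortical excitatory-like nuclei. Cdh18, so concentrated in the adult cortical class, was at 103 in E14 cortical excitatory-like nuclei, below its E14 library level of 276, and was highest in posterior hypothalamic-like (440) and Gata GABAergic-like (438) nuclei.

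Cdh4 and Cdh6 are textbook markers of dorsal and ventral telencephalon, and progenitors were compared for them. Dorsal progenitor-like nuclei (59 nuclei) held Cdh4 at 261 CPM and ventral progenitor-like nuclei (18 nuclei) at 382, a ratio of 0.684 (0.550 to 0.854), so the dorsal level was the lower. Cdh6 was at 47.9 dorsally and 64.8 ventrally, a ratio of 0.740 (0.435 to 1.31) that included 1. Cdh22 was at 113 ventrally and 14.5 dorsally, 7.84-fold (4.22 to 15.2) higher. Pcdh19, an X-linked delta2 protocadherin linked to epilepsy, was 3.49-fold (2.16 to 6.00) and Pcdh15 5.14-fold (3.62 to 7.53) higher in the dorsal class. The ventral values rest on 18 nuclei, 6 of them near the classification limit. Cdh2, at 1304 in dorsal and 1409 in ventral progenitor-like nuclei, was 1.29-fold (1.20 to 1.39) higher in the dorsal class than in cortical excitatory-like nuclei.

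Partners of the cadherins were read from a fixed list of 14 cytoplasmic partners (catenins, afadin and WAVE complex genes) and of 9 related cadherins (Fat, Dchs and Celsr genes). The partners gave 4 calls among 141 adult pairs (2.84%) and 0 among 234 E14 pairs, beside 5.67% and 2.25% over all genes. The adult calls were alpha-catenin Ctnna1 (371 CPM, 6.56-fold), beta-catenin Ctnnb1 (442, 5.12-fold) and plakoglobin Jup (77.4, 5.94-fold) in endothelial-like nuclei, and Jup (71.5, 6.81-fold) in oligodendrocyte-like nuclei. The related cadherins gave 4 calls among 28 adult pairs (14.3%) and 5 among 100 E14 pairs (5.0%), beside the same shares over all genes. Celsr1, a planar polarity cadherin, was called in adult astrocyte-like nuclei at 58.9 and in 3 E14 progenitor classes, from 143 in dorsal to 184 in intermediate progenitor-like nuclei. Fat2 was called in E14 fibroblast-like nuclei at 32.3, and Dchs2 in adult inhibitory-like nuclei at 126.

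Both libraries held 4 classes with at least 25 nuclei each, and member levels in them were set side by side. Age, animal, tissue area and library differ together between the libraries and cannot be told apart. In thalamic-like nuclei 8 of 24 members were at least 4-fold higher at E14 (background 10.6%) and 0 were higher in the adult (background 6.42%). They were Cdh4 (437 at E14 against 97.4 in the adult), Cdh22, Cdh23, Cdh24, Pcdh8, Pcdh11x, Pcdh15 (696 against 106) and Pcdh17 (286 against 43.8). Of these, Cdh4, Pcdh11x and Pcdh15 were above their E14 library levels (387, 202 and 682). Cdh22, Cdh23, Cdh24, Pcdh8 and Pcdh17 were below theirs. The adult levels rested on 2 UMIs each for Cdh23 and Pcdh8, 6 for Cdh22 and 7 for Cdh24. The median log2 ratio of adult over E14 was -0.43 for the members and -0.18 for all genes. With TMM scaling Cdh4, Cdh24 and Pcdh11x were under 4-fold, and Cdh12, which was 3.84-fold (3.41 to 4.32) higher in the adult without it, passed 4-fold.

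Cortical excitatory-like nuclei differed in both directions. The adult class held only 26 nuclei, and none of its own markers was among its 10 leading genes. Of 24 members, 5 were at least 4-fold higher in the adult (background 6.28%) and 4 at E14 (background 7.37%). Higher in the adult were Cdh18 (2334 against 103, 22.7-fold, 19.3 to 26.9), Cdh9 (115 against 18.0), Cdh12 (252 against 47.7), Pcdh1 (60.8 against 8.67) and Pcdh9 (5819 against 1339). Higher at E14 were Cdh4 (199 against 4.50 from 2 UMIs), Cdh8 (610 against 144), Cdh13 (1144 against 268) and Cdh20, which was at 73.7 at E14 against 0 in the adult, at least 10.9-fold. Of the 5 members in the chromosome 15 stretch, Cdh9, Cdh12 and Cdh18 are among these, while Cdh10 was at 205 in the adult and 156 at E14 and Cdh6 at 33.8 and 64.4. Of the 4 higher at E14, Cdh4 alone was below its E14 library level (387). With nuclei weighted equally Cdh8 and Pcdh9 were under 4-fold. The medians were -0.47 for members and -0.21 for all genes.

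In endothelial-like nuclei 7 of 26 members were at least 4-fold higher at E14 (background 6.48%) and 0 in the adult (background 3.68%). Cdh5 was alike in both, at 377 and 367 CPM. Pcdh12 was at 69.4 at E14 and 3.23 in the adult, which rested on 1 UMI. Cdh2, which links endothelial cells to pericytes, was at 1153 at E14 and 236 in the adult, a ratio of 4.90 (3.88 to 6.27), and Cdh11 was at 249 and 45.2, a ratio of 1.82 with nuclei weighted equally. The E14 levels of Cdh2 and Cdh11 were above their library levels (894 and 191). The other 4, Cdh8, Pcdh7, Pcdh15 and Pcdh17, were below theirs at E14. Pcdh7 and Pcdh17 were under 4-fold among nuclei with at least 2000 UMIs. Cdh4, at 3.90-fold (2.29 to 7.22) higher at E14, passed 4-fold in all 3 alternatives, and Cdh6 and Pcdh18 did so with nuclei weighted equally.

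In microglia or macrophage-like nuclei 10 of 18 members were at least 4-fold higher at E14 (background 7.26%) and 2 in the adult (background 3.65%). Of the 10, Cdh20 (73.2, library 66.0) alone was above its E14 library level. The 2 higher in the adult were Cdh23 (405 against 57.2) and Cdh9 (145 against 20.6), the latter from 9.30% of adult nuclei and under 4-fold with nuclei weighted equally. Cdh13, Cdh20, Pcdh11x and Pcdh19 were also under 4-fold in that setting, while Cdh10 and Pcdh17 passed it. Cdh20 was under 4-fold among nuclei with at least 2000 UMIs too. Median log2 ratios were -2.22 for members and -0.24 for all genes, and in endothelial-like nuclei -1.51 and -0.21.

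**Figure D5:**
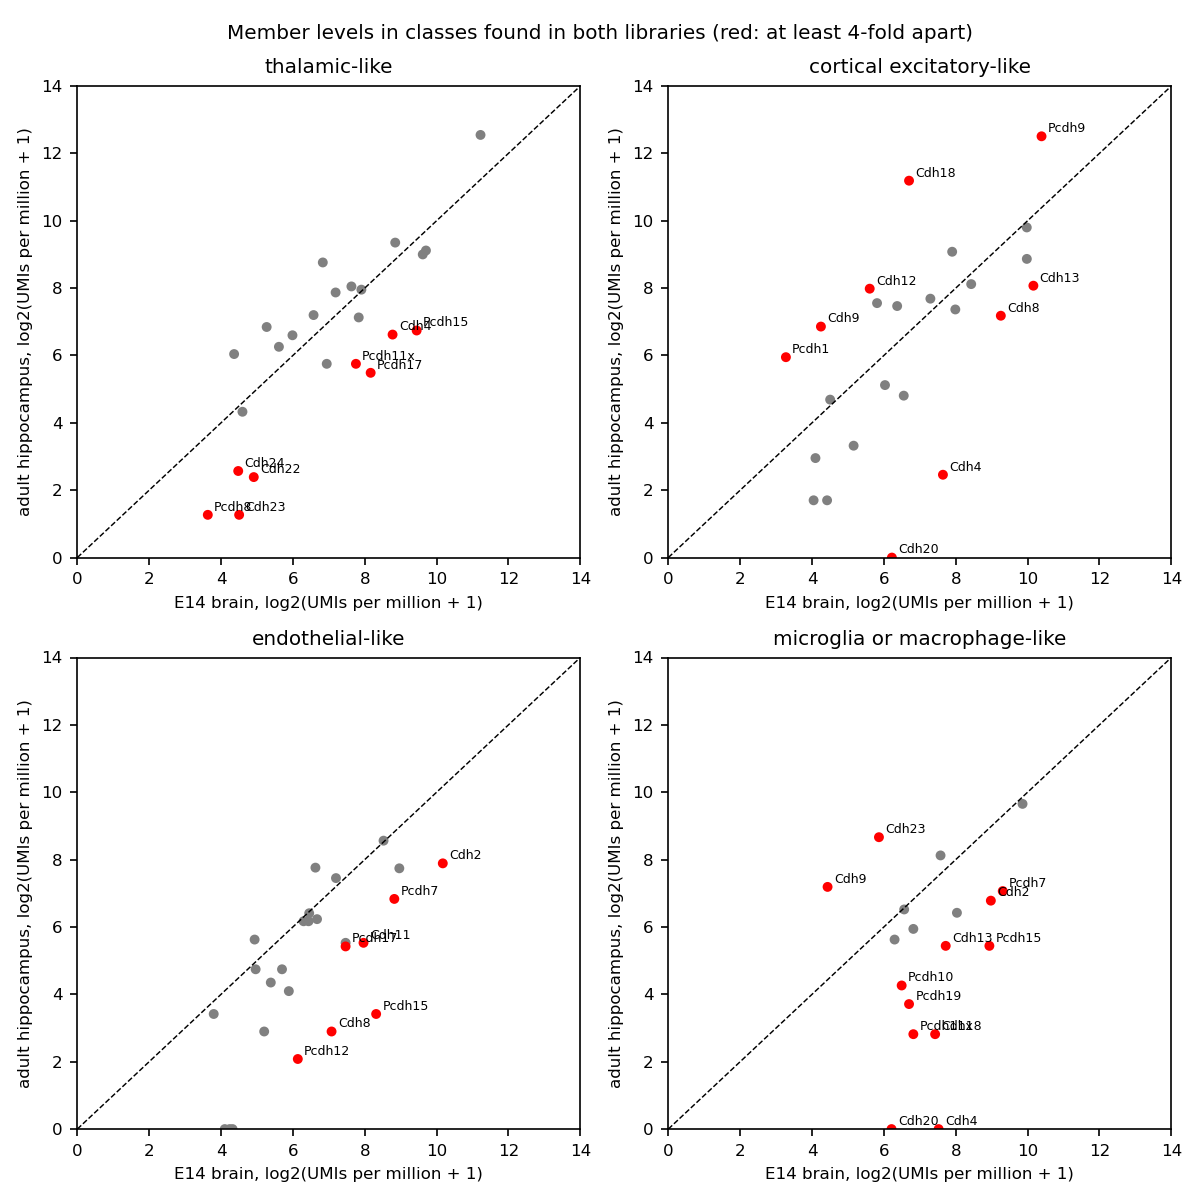
Member levels in the 4 classes present in both libraries, with E14 on the x axis and adult on the y axis as log2(CPM + 1), a dashed line of equality, and named red points at least 4-fold apart. Cdh18 lies above the line in cortical excitatory-like nuclei, and most named points lie below it in the other 3 classes.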

How the data were processed

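Nuclei of 1 adult and 1 E14 mouse brain section were tagged with spatial barcodes and sequenced on the 10x Genomics 3' platform. The deposited count matrices hold whole-number UMI counts per gene and barcode, which the authors made with Cell Ranger (per the file headers, 6.1.2 for the adult and 7.0.1 for E14) against mm10 with introns included. Their methods describe a CellBender step for the embryo. The matrix header names Cell Ranger alone, so the counts were treated as preceding it.

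Here, nuclei needed 500 UMIs, with less than 5% of them mitochondrial. A nucleus joined a class if 3 different markers had a UMI, with list UMIs at least 1.5 times those expected, a deviance of at least 4 and a lead of 1.5 times over the second list. Progenitors were split by dorsal and ventral lists. Classes under 15 nuclei were not described, and nuclei under a lead of 3 times were counted as near the limit. No nuclei were removed as doublets. Scrublet called 6 adult nuclei (0.373%) and 2433 E14 nuclei (26.9%), and removal of the 21 and 653 top-scoring nuclei was an alternative. UMIs were summed by class. A fold was computed against the rest, with the rest set to at least 3 counts. Ratios carry exact conditional binomial intervals. Summed depth was 15346746 adult and 58923882 E14 UMIs. Members, marker lists, the scoring rule and class pairs were chosen with earlier results of these data known, and the scoring rule was set after class sizes were seen. Members were named where called, where their top class had 20 UMIs, or where textbooks use them. Spatial positions were not used. The call function was tested on simulated counts. Gene positions came from GENCODE vM21 (GRCm38). Tools were numpy 2.4.6, scipy 1.17.1, scanpy 1.11.5, leidenalg 0.10.2 and edgeR 4.0.16 (TMM factors only).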

Additional observations from a re-analysis of the deposited data

Results flagged for a closer look

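Signal outside the comparisons was found in 2 sets of adult nuclei. The 52 nuclei removed by the filters held 105 member UMIs, led by Pcdh9 with 29, Pcdh17 with 16 and Pcdh1 with 12. The 7 mural-like nuclei, too few to describe, held 84 member UMIs, led by Cdh2 with 15, Pcdh19 with 12 and Pcdh15 with 11.

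Some members were above the rest of the library in an adult class and below it in the E14 class of the same name. The difference was not tested, since each age had 1 library. Cdh7 in thalamic-like nuclei was 18.2-fold above the rest in the adult (114 against 6.25 CPM) and 0.704-fold (0.601 to 0.819) at E14. Cdh18 in cortical excitatory-like nuclei was 24.6-fold above in the adult and 0.365-fold (0.312 to 0.426) at E14. Pcdh10, a delta2 protocadherin, was 2.05-fold in adult thalamic-like nuclei against 0.70-fold (0.635 to 0.771) at E14, and 2.49-fold in adult cortical excitatory-like nuclei against 0.412-fold (0.331 to 0.508). Pcdh15 and Pcdh11x in cortical excitatory-like nuclei were 2.06-fold and 3.13-fold in the adult against 0.498-fold (0.457 to 0.542) and 0.399-fold (0.333 to 0.473) at E14.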

How the results depend on the processing

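The counts of calls stayed within 1.5 times of those reported (18 adult, 10 E14, 36 differences of at least 4-fold between libraries) under 26 of the 31 alternatives run over the 3 counts. The others changed the threshold itself. A fold of 2 gave 44 adult and 17 E14 calls, a fold of 8 gave 7 and 6, and no minimum level gave 18 at E14. No single value reversed, meaning a fold below 1. All had been selected for being at least 4-fold, so this says little about their stability. Of 497 values, 447 kept their call and 50 lost it with the fold still above 1. A fold of 2, a fold of 8 and no minimum level changed only the call and left the folds as reported. The lost Cdh1 calls in fibroblast-like nuclei kept folds of 19.5 or more and fell under the minimum of 20 UMIs. With nuclei weighted equally 12 of the 18 adult calls were shared. TMM scaling kept 18 adult and 9 E14 calls. The rest limited to assigned nuclei was chosen after seeing the data and shared 17 adult and 10 E14 calls. Clusters made without members and markers placed 92.5% of assigned adult and 65.0% of assigned E14 nuclei with their own class. No paired analysis was possible because each tissue had 1 library. Depth limits classes with few UMIs, such as 164607 in E14 mural-like and 165254 in adult microglia or macrophage-like nuclei. In the latter, a count of 0 has an exact upper limit of 22.3 CPM.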
